A study of Mus musculus with 2 samples.

Results

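The miR-181 family was described in RNA pulled down with biotin-labelled proteins from mouse skin keratinocytes. The family was taken as 8 mature miRNA names (the 5p names of miR-181a, b, c and d, and the 3p names of miR-181a-1, a-2, c and d) out of 1477 miRNA names counted in either library. Of the 8 names, 6 were listed in each library and 2, mmu-miR-181a-2-3p and mmu-miR-181d-3p, were at 0 counts in both. The study had 1 group of 2 replicate libraries (Streptavidin_pulldown), both from cells grown in low-calcium medium, given biotin and made to express Dsp-BirA, a fusion of the desmosome protein desmoplakin with a biotin ligase. The fusion marks proteins near desmosomes, the junctions that hold epithelial cells together, and the design text gives the aim as inferring what Argonaute proteins do there. Nothing in the labels says that the libraries came from separate cultures, and with no input or unlabelled control analysed here the values are levels in the pulldown, not enrichment.

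A miRNA is cut from a hairpin precursor, and either strand, named 5p or 3p, can be loaded into an Argonaute protein, which it guides to RNAs that pair with its seed (bases 2 to 8). The strand that is loaded less is usually degraded. The miR-181 family is encoded by paired hairpins in several clusters and is best known from blood cells, where miR-181a sets the sensitivity of developing T cells to antigen. Names that share a seed are expected to pair with largely the same sites, so how the counts divide among them describes which gene clusters supply that seed.

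All 8 names had a mature sequence in the RefSeq table (GRCm38.p6). The 5p sequences are shown because the family rests on their common seed, which is in capitals and is identical in all 4.
mmu-miR-181a-5p: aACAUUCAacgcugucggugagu
mmu-miR-181b-5p: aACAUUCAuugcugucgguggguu
mmu-miR-181c-5p: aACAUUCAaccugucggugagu
mmu-miR-181d-5p: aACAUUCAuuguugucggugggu
No other mature miRNA of that table carries this seed. The 5p sequences fall into 2 look-alike pairs that cross the gene clusters. miR-181c-5p is miR-181a-5p with 1 base (G11) missing, counted from the 5′ end of miR-181a-5p, and the first 10 bases of both are identical. miR-181b-5p and miR-181d-5p differ by the substitution C12U (miR-181b-5p first) and by 1 further U at the 3′ end of miR-181b-5p. miR-181a-5p and miR-181b-5p are 4 single-base edits apart. Outside the family the nearest mature sequence to any of the 5p names was 7 edits away. How the authors assigned reads that match 2 names is not given in the sources used here.

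The 3p sequences, again with the seed in capitals, are less alike and are shown because only these names tell the miR-181a genes apart.
mmu-miR-181a-1-3p: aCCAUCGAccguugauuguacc
mmu-miR-181a-2-3p: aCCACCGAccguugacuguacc
mmu-miR-181c-3p: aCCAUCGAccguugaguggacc
mmu-miR-181d-3p: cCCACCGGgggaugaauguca
miR-181a-1-3p and miR-181c-3p share a seed and their first 15 bases, and differ by U16G and U19G (miR-181a-1-3p first). miR-181a-2-3p differs from miR-181a-1-3p by U5C, inside the seed, and U16C. miR-181d-3p has a seed of its own.

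The names come from 6 hairpin genes in 3 places. Mir181a-1 (chr1:137966455-137966541, plus strand) and Mir181b-1 (chr1:137966639-137966718, plus strand) lie 97 bases apart, with no other gene of the RefSeq gene table over them. Mir181a-2 (chr2:38852735-38852810, plus strand) and Mir181b-2 (chr2:38853830-38853918, plus strand) lie 1019 bases apart, within the spans of Nr6a1 and its antisense lncRNA gene Nr6a1os. Mir181d (chr8:84178716-84178787, minus strand) and Mir181c (chr8:84178873-84178961, minus strand) lie 85 bases apart in the same table, between Nanos3 and Mir23a. Both miR-181a-5p and miR-181b-5p can arise from a gene on chromosome 1 and from one on chromosome 2, and their counts do not separate the genes. Exons and introns were not annotated in the tables used. Coordinates are RefSeq's for GRCm38.p6, the assembly called mm10, which the submitters' processing notes name.

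The 2 hairpins below show the arms in capitals, one from each kind of cluster, since the recovery of their arms is described further on.
Mir181a-1: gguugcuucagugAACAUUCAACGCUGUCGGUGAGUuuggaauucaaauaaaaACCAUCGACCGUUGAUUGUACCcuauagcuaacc
Mir181d: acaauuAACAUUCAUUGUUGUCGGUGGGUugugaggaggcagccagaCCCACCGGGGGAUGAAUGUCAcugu
In Mir181a-1 the arms are separated by a loop of 17 bases, and in Mir181d by one of 18.

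Replicate 1 held 3776893 miRNA counts and replicate 2 held 4122955. Levels are given as CPM, counts per 1000000 miRNA counts of the library. The limit that a count of 0 allows is 3 counts (0.794 CPM in replicate 1, 0.728 CPM in the other). All intervals and these limits cover counting error only. The handling of PCR copies is not given, so reads need not be independent molecules. miRNAs that mark keratinocytes and epithelium were abundant: all 7 of a list with miR-205-5p, miR-203-3p and the miR-200 family were found in both libraries, at 106015 ± 228 CPM summed (SD, n = 2). The other lists summed to 11.9 ± 8.21 CPM for blood cells (6 names, 2 in both libraries) and 158 ± 8.03 CPM for neurons (3 names, 2 in both). Muscle had 27.5 ± 10.1 CPM (3 names, 1 in both) and endothelium 471 ± 63.0 CPM (2 names, both in both). Fibroblasts had 58.0 ± 55.5 CPM (5 names as spelled in the list, 2 in both). That sum leaves out miR-145a-5p, with 23 counts in replicate 1 and 16 in replicate 2, because the list spelled it miR-145-5p. Of the 2 blood-cell names in both libraries, miR-150-5p had 6 counts in replicate 1 and 22 in replicate 2, and miR-223-3p had 2 and 4. The other blood-cell names were at 0 in 1 library and had up to 24 counts (miR-144-3p, replicate 2) in the other. The part of other cell types in the miR-181 counts was not tested.

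The family was a minor component of the pulldown. Its 8 names held 3399 counts in replicate 1, or 0.0900% of the miRNA total (Wilson 95% interval 0.0870% to 0.0931%). In replicate 2 they held 3480 counts, or 0.0844% (0.0816% to 0.0873%). The mean was 0.0872% ± 0.00395 (SD, n = 2). When names were grouped by seed, the 4 5p names together (772 ± 21.1 CPM) ranked 61 among 1051 seed groups, and 61 in each library taken alone. The grouping covered the 1231 names with a sequence in the RefSeq table, which held 89.0% of all counts.

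The 5p names carried most of the family. miR-181a-5p was the most abundant name, with 1336 counts in replicate 1 (354 CPM) and 1083 in replicate 2 (263 CPM). It stood at rank 139 in replicate 1 and 159 in replicate 2 among all miRNA names. miR-181b-5p, which has the same seed, had 784 counts (208 CPM) and 908 counts (220 CPM). The lower library of miR-181a-5p was above the higher library of miR-181b-5p, so these levels did not overlap.

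The members of the c/d cluster were lower. miR-181d-5p had 478 counts in replicate 1 (127 CPM) and 635 in replicate 2 (154 CPM). miR-181c-5p had 374 counts (99.0 CPM) and 495 counts (120 CPM). The order a, b, d, c was the same in both libraries, and no neighbours in this order overlapped, although the lower value of miR-181d-5p was close to the higher value of miR-181c-5p. A two-sided, exact permutation test by flipping signs over 2 libraries cannot reach p = 0.05 (its smallest p is 0.5), so these gaps are set against the spread between libraries only.

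Among the 3p names a single one was recovered in quantity. miR-181c-3p had 406 counts in replicate 1 (107 CPM) and 358 in replicate 2 (86.8 CPM), a range that overlapped that of miR-181c-5p. Of the family's 3p counts it held 95.1% in replicate 1 (92.6% to 96.8%, Wilson 95% interval) and 99.7% (98.4% to 99.95%) in replicate 2. miR-181a-1-3p had 21 counts in replicate 1 (5.56 CPM) and 1 in replicate 2 (0.243 CPM). miR-181a-2-3p and miR-181d-3p were not detected at this depth. 2 further 3p names lie outside the 8: miR-181b-2-3p had 9 counts in replicate 1 and 0 in replicate 2, and miR-181b-1-3p had 0 in both.

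**Figure D1:**
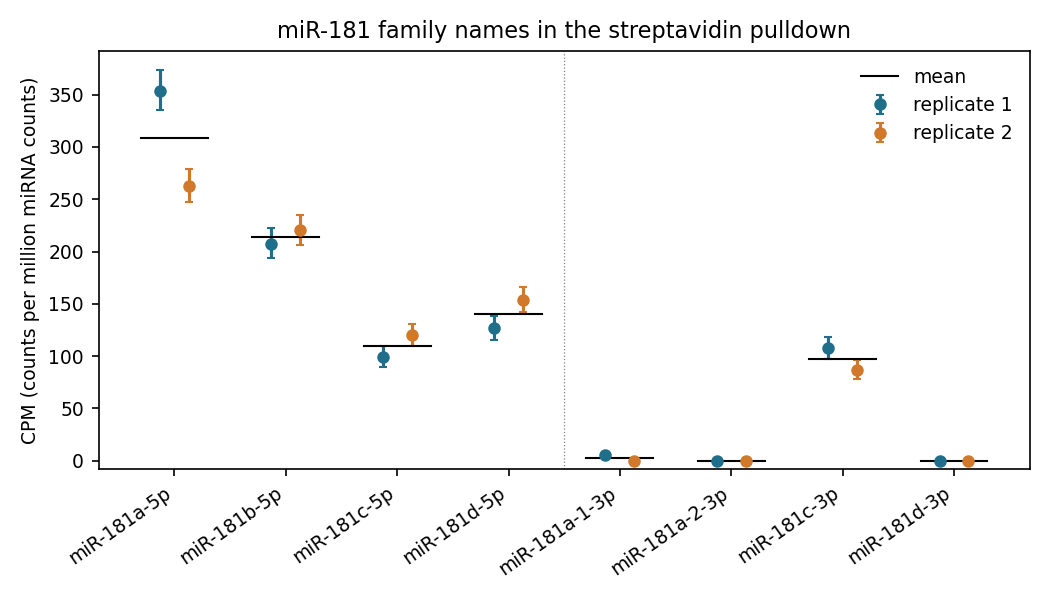
Level of each of the 8 miR-181 names in CPM (linear axis) in the 2 replicate libraries. Points are single libraries with Wilson 95% intervals for counting error, black lines are means over both, and the dotted line separates 5p from 3p names. The 5p names step down from miR-181a-5p to miR-181c-5p, miR-181c-3p lies near miR-181c-5p, and the other 3p names lie at or near 0.

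The comparison of the a/b clusters with the c/d cluster gave opposite answers for the 2 arms. Over all 8 names the a/b clusters had 2141 counts against 1258 in replicate 1, a ratio of 1.70 (exact 95% interval 1.59 to 1.83). In replicate 2 they had 1992 against 1488, a ratio of 1.34 (1.25 to 1.43), and the mean was 1.52 ± 0.257 (SD, n = 2). Among the 5p names alone the ratio was 2.49 in replicate 1 (2.30 to 2.70) and 1.76 in replicate 2 (1.64 to 1.90), with a mean of 2.13 ± 0.514. Both libraries thus had more 5p counts from the a/b clusters, and the size of the excess differed between them by more than counting error.

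Among the 3p names the order was turned round. The c/d cluster had 406 counts against 21 in replicate 1, and 358 against 1 in replicate 2. The a/b clusters therefore had 0.0517 times the 3p counts of the c/d cluster in replicate 1 (exact 95% interval 0.0317 to 0.0801) and 0.00279 times in replicate 2 (7.05e-05 to 0.0157). The c/d count was miR-181c-3p alone.

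The clusters also differ in how many genes feed them, 4 for a/b and 2 for c/d. Divided by the number of genes, the 5p ratio was 1.24 in replicate 1 and 0.881 in replicate 2, with a mean of 1.06 ± 0.257 (SD, n = 2). Over all 8 names it was 0.851 and 0.669, with a mean of 0.760 ± 0.128. Per gene, then, the 5p excess of the a/b clusters was not larger than the spread between the libraries, and over both arms the c/d cluster gave more counts. These are averages over genes whose single contributions the counts do not give.

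The 5p seed was divided among the 4 names as follows. miR-181a-5p held 45.0% (43.2% to 46.7%, Wilson 95% interval) of the 5p counts of replicate 1 and 34.7% (33.1% to 36.4%) of those of replicate 2, or 39.8% ± 7.25 (SD, n = 2). miR-181b-5p held 27.7% ± 1.92, miR-181d-5p 18.2% ± 3.01 and miR-181c-5p 14.2% ± 2.32. The largest share thus had the largest SD, which is in percentage points and not scaled to the size of the share. It was lower in replicate 2, where the other 3 were higher, and shares of 1 total must offset each other. No single name supplied most of this seed in either library.

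**Figure D2:**
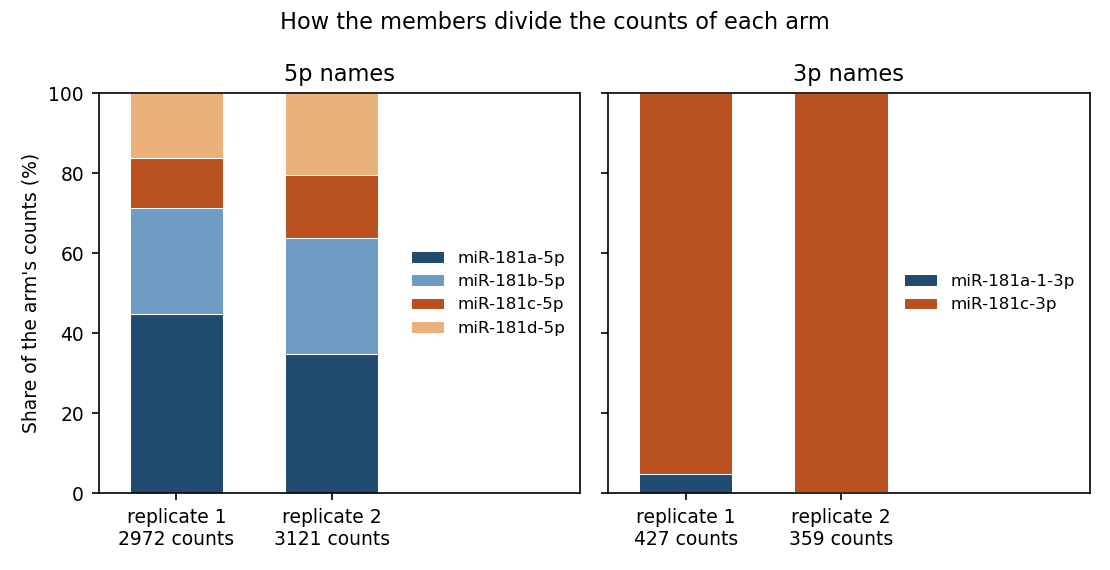
Share of the counts of each arm held by each name, in percent, with 5p names on the left and 3p names on the right, 1 bar per library and the arm's total count under it. Blue marks names of the a/b clusters and orange names of the c/d cluster. Blue takes 71.3% and 63.8% of the 5p bars, while miR-181c-3p takes 95.1% and 99.7% of the 3p bars. The 1 count of miR-181a-1-3p in replicate 2 is too thin to see.

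Within the c/d cluster the 5p names kept nearly the same proportion in both libraries. miR-181d-5p had 1.278 times the counts of miR-181c-5p in replicate 1 (exact 95% interval 1.11 to 1.47) and 1.283 times in replicate 2 (1.14 to 1.45), a mean of 1.28 ± 0.00336 (SD, n = 2). The difference between these values is far smaller than the width of either interval, so the SD understates their uncertainty. The proportion of the a/b pair differed more. miR-181a-5p had 1.70 times the counts of miR-181b-5p in replicate 1 (1.56 to 1.86) and 1.19 times in replicate 2 (1.09 to 1.30). These intervals, for counting error only, did not overlap. Across the look-alike pairs, miR-181a-5p had 3.57 times (3.18 to 4.02) and 2.19 times (1.97 to 2.44) the counts of miR-181c-5p. miR-181b-5p had 1.64 times (1.46 to 1.84) and 1.43 times (1.29 to 1.59) the counts of miR-181d-5p.

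Each name was set against the library totals in an exact two-sided binomial test, with Benjamini-Hochberg adjustment over every name whose mean count reached 10. This compares 2 libraries of 1 condition. Of the 6 members that reached the minimum, 5 differed at an adjusted p of 0.05, with 2 higher and 3 lower in replicate 2. The background was 707 of 1002 names, or 70.6%, so differing was the rule for any name. The median absolute log2 ratio was 0.30 for the 6 members and 0.83 for all names tested. Restricted to a mean count of 100 or more, it was 0.28 for 5 members and 0.24 for all 358 names.

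miR-181a-5p was lower in replicate 2. Its log2 ratio was -0.43 (-0.55 to -0.31, 95% interval, exact binomial test, adjusted p = 2.16e-12). miR-181c-5p and miR-181d-5p were higher by nearly the same amount, with log2 ratios of 0.28 (0.08 to 0.48, exact binomial, adjusted p = 0.00766) and 0.28 (0.11 to 0.46, exact binomial, adjusted p = 0.00204). For miR-181b-5p the log2 ratio was 0.085 (-0.05 to 0.23, exact binomial, adjusted p = 0.279), which did not pass. The 5p members of the c/d cluster thus shared a direction, while those of the a/b clusters had opposite signs, with that of miR-181b-5p within counting error of 0. Added up, the 4 5p names had a log2 ratio of -0.06 (-0.13 to 0.02), smaller in size than that of any single one of them.

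miR-181c-3p moved the other way from its 5p partner. It had a log2 ratio of -0.31 (-0.52 to -0.10, exact binomial, adjusted p = 0.0054), against 0.28 for miR-181c-5p. miR-181a-1-3p, with 21 counts and 1, had a log2 ratio of -4.52 (-9.89 to -1.88, exact binomial, adjusted p = 6.54e-06). It was the only member with a ratio of at least 2-fold, and it rests on few counts.

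**Figure D3:**
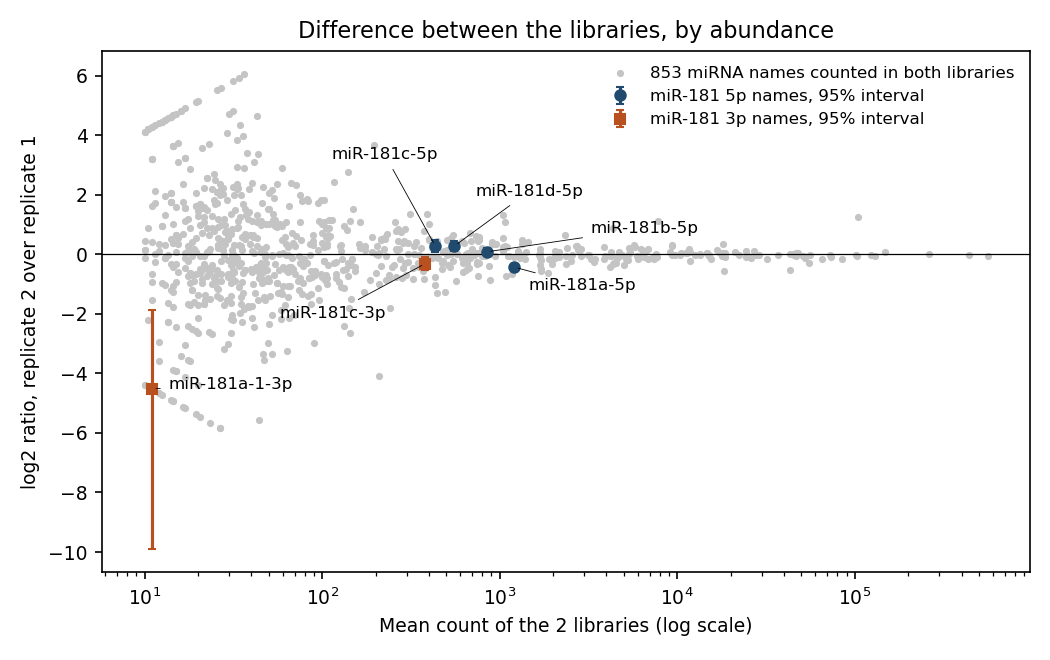
log2 ratio of replicate 2 over replicate 1 after scaling by library totals, against the mean count (log axis). Grey points are the 853 tested names counted in both libraries, and coloured points are miR-181 names with exact 95% intervals. The 5p names and miR-181c-3p lie within 0.5 of 0, inside the grey band at their abundance, and miR-181a-1-3p lies at -4.52 among names of few counts.

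The arms of miR-181c were close to even. The 5p arm held 47.9% of the counts of this hairpin in replicate 1 (Wilson 95% interval 44.5% to 51.5%), where a difference between the arms was not called (exact binomial test, adjusted p = 0.269). Replicate 2 gave 58.0% (54.7% to 61.3%), and the 5p arm was ahead (exact binomial, adjusted p = 3.27e-06). The p-values were adjusted over the 164 hairpins that had 2 named arms and 100 or more counts per library, of which 97.6% had unequal arms in replicate 1 and 97% in replicate 2. miR-181c was thus among the few without a called difference in replicate 1. Its mean of 53.0% ± 7.13 (SD, n = 2) ranked 4 among the 164 in closeness to 50%, with values on either side of 50% and ranks of 4 in replicate 1 and 14 in replicate 2 taken alone, and it was 1 of 7 hairpins whose larger arm changed between the libraries. It was also 1 of 8 with a 5p share of 40 to 60% in both.

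The summed output of the miR-181c hairpin hardly varied, in contrast to its arms. Both arms together came to 206.5 CPM in one library and 206.9 CPM in the other, a log2 ratio of 0.0026 (95% interval -0.14 to 0.14).

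The arms of the other hairpins were uneven. miR-181d had 478 and 635 counts from its 5p arm and 0 from its 3p arm. The 5p counts were 159 times the limit of 3 counts in replicate 1 and 212 times in replicate 2. miR-181c-3p likewise had 135 and 119 times the limit for miR-181d-3p, from the hairpin 85 bases away. The counting error of the larger counts is not in these multiples. For the a/b clusters, without the 3p names of miR-181b, the 5p names held 99.0% of the counts in replicate 1 and 99.95% in replicate 2. For the c/d cluster they held 67.7% (Wilson 95% interval 65.1% to 70.3%) and 75.9% (73.7% to 78.0%). The intervals of the clusters were far apart in both libraries.

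Because miR-181a-5p can come from Mir181a-1 or Mir181a-2, only the 3p names differ between these genes. Their counts need not follow the output of the gene, since miR-181d had 478 and 635 5p counts and 0 3p counts. In replicate 1 miR-181a-1-3p, with 21 counts, had 7 times the limit of 3 counts for miR-181a-2-3p. The counting error of the 21 counts is not in this multiple. In replicate 2 both were at or under the limit of 3 counts, and no ratio can be given. The limit can be passed, since 149 tested names with a mean count of 10 or more were at 0 in 1 library. miR-181a-5p had 63.6 times the counts of miR-181a-1-3p in replicate 1 (exact 95% interval 41.4 to 103) and 1083 times in replicate 2 (194 to 42815), where the divisor was 1 count.

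**Figure D4:**
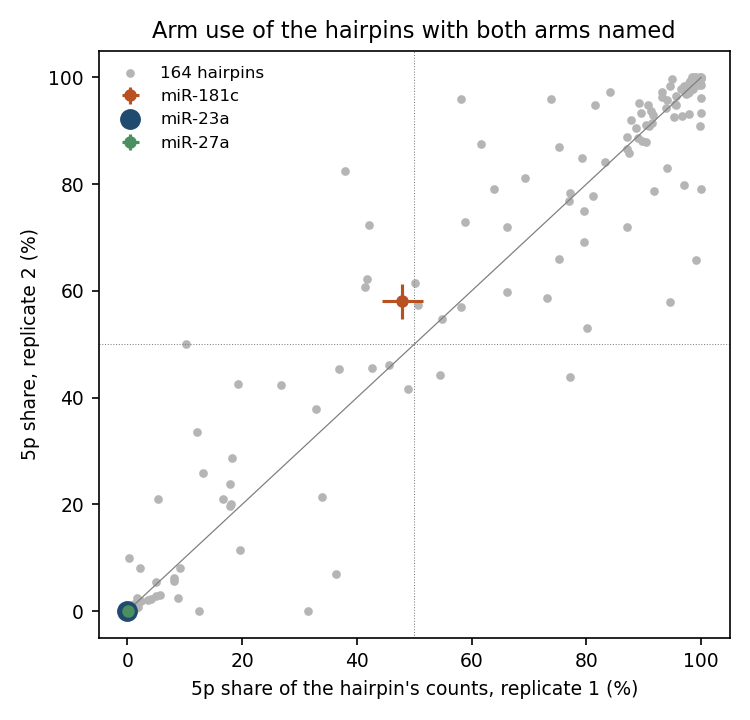
5p share of the counts of each of 164 hairpins in replicate 1 (horizontal axis, percent) and replicate 2 (vertical axis, percent). Both arms were listed in at least 1 library, with 100 or more counts per library. The diagonal marks equal shares, dotted lines mark 50%, and bars are Wilson 95% intervals. miR-181c sits at 47.9% and 58.0%, while miR-23a and miR-27a, the neighbours on chromosome 8, lie on top of each other near 0%.

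The nearest miRNA genes to the c/d cluster gave far more counts. Mir23a begins 29556 bases beyond Mir181c, on the opposite strand, followed by Mir27a and Mir24-2. miR-27a-3p had 66788 ± 234 CPM (SD, n = 2), which was 200 times the counts of the whole c/d cluster in replicate 1 and 186 times in replicate 2. miR-23a-3p had 80.4 and 71.0 times as many counts as the c/d cluster. miR-24-3p, which can also come from Mir24-1, had 35.9 and 34.5 times as many. The passenger strand miR-24-2-5p was at the level of the c/d cluster, which had 1.06 times its counts in replicate 1 (exact 95% interval 0.977 to 1.15) and 1.23 times in replicate 2 (1.14 to 1.32).

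Arm use differed as clearly between these neighbours. The 5p arm held 0.0119% of the miR-23a counts in replicate 1 and 0.0161% in replicate 2. For miR-27a it held 0.0548% and 0.0275%. miR-23a-5p had 12 and 17 counts, and miR-27a-5p had 138 and 76. Both 5p names were thus recovered below miR-181c-3p, unlike miR-24-2-5p, which had 1189 and 1213 counts.

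The names nearest in level were found by the distance of log2(CPM + 1) over the 2 libraries. For miR-181a-5p these were miR-126a-3p (1308 and 1093 counts, distance 0.0332), miR-34c-5p (1397 and 964 counts, distance 0.179) and miR-24-2-5p (1189 and 1213 counts, distance 0.234). For miR-181c-5p they were miR-29a-5p (367 and 467 counts, distance 0.0876), miR-24-1-5p (358 and 528 counts, distance 0.111) and miR-494-3p (317 and 485 counts, distance 0.238). miR-126a-3p, a marker of endothelium, thus had about the level of the most abundant miR-181 name. Likeness over 2 libraries describes level only.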

How the data were processed

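For each of the 2 libraries the authors deposited a table without header that pairs mature miRNAs with raw counts, which sum to different totals. The submitters' processing notes name cutadapt, Novoalign and mm10. Versions, the miRNA reference and the handling of PCR copies, chimeric reads and reads matching several miRNAs are not given in the sources used here. Per the labels' protocols, linkers were ligated to RNA eluted from streptavidin beads and the cDNA was amplified by PCR, so ligation and amplification can shift the reads of each miRNA. Unlisted names were set to 0. Names that begin with Cali (0.00265% and 0.000218% of counts) are no miRNA names and were left out.

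CPM, shares (Wilson intervals), ratios (exact Clopper-Pearson intervals) and exact binomial tests were computed with scipy 1.17.1, pandas 2.3.3 and numpy 2.4.6 under Python 3.11.15. Plots used matplotlib 3.10.9. TMM sizes (edgeR 4.0.16, R 4.3.3) and DESeq2 1.42.0 size factors were alternatives. With 1 group, no test between conditions was possible. The binomial test was also run on simulated counts whose only noise was counting error. That simulation does not cover the wider spread between these libraries. Hairpins were paired by names ending in 5p and 3p, where both names were listed in at least 1 library.

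Sequences and genes are RefSeq's (GRCm38.p6). The rule for naming took the 8 members, other miR-181 names, names with their seed, the Mir23a, Mir27a and Mir24-2 names, and the 3 names nearest in level to miR-181a-5p and to miR-181c-5p. Hairpins in the closing section and single names from the marker lists were chosen after their values were seen. The members, lists and tests were chosen with earlier results of these data known.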

Additional observations from a re-analysis of the deposited data

How the results depend on the processing

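The family share was 0.0772% for 5p names only and 0.102% where miR-31-5p was left out of the total. TMM sizes, DESeq2 factors, drawing the deeper library down and a mean of at least 100 counts moved it by less than the SD. The ratio of the a/b clusters over the c/d cluster was 2.13 for 5p names, 2.88 for miR-181a-5p over miR-181c-5p, and 0.0273 for 3p names, where it reversed. Divided by the number of genes (chosen after seeing the data), it was 0.760 over all names, a reversal, and 1.06 for 5p names. The 5p share of the c/d cluster was 53.0% for miR-181c and 100% for miR-181d. miR-181a-1-3p over miR-181a-2-3p was 22 in replicate 1 and 2 in replicate 2 with 1 count added to each, a mean of 12. The 5 members that differed between the libraries were 1 with a 2-fold ratio also required (441 of 1002 names passed), and 0, also at an unadjusted p under 0.05, in the exact binomial test on counts divided by 20.7, the variance-to-mean index of names with 10 to 300 counts (16 of 1001 names passed). The divisor comes from the same libraries and mostly from names with fewer counts than the members, so that 0 does not show that the members were equal. The 5 calls, in turn, rest on counting error alone.

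Leaving out each library in turn gave 0.0844% to 0.0900% for the family share, 1.34 to 1.70 for the cluster ratio, 87.4% to 89.7% for the 5p share of the family, 67.7% to 75.9% for that of the c/d cluster and 34.7% to 45.0% for miR-181a-5p among 5p counts. The seed group kept rank 61 under all 4 alternatives, some of which used both libraries. Each value with a library left out is the untested value of the remaining library. No paired analysis was possible because the study has a single group.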

Other observations

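The hairpins with a 5p share of 40 to 60% in both libraries numbered 8 of 164. Besides miR-181c these were miR-140, miR-151, miR-1839, miR-297a, miR-466c, miR-467d and miR-501, chosen after their values were seen. miR-140, known from cartilage, had 50.7% of its counts from the 5p arm in replicate 1 and 57.3% in replicate 2. For miR-151 the 5p share was 48.9% and 41.6%. miR-1839 had 54.5% and 44.2%, and its larger arm also changed between the libraries. miR-297a, miR-466c and miR-467d, names of the Sfmbt2 miRNA cluster, had means of 44.1% ± 2.03, 54.9% ± 0.0706 and 45.8% ± 0.398 (SD, n = 2). Their arms varied less between the libraries than those of miR-181c, with 53.0% ± 7.13, and each had more counts than miR-181c. Arms were paired by name, so a pair can pool the counts of more than 1 gene. What sets the arm shares was not tested.

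The 5p names were also summed by look-alike pair and by cluster, without their 3p names. miR-181a-5p plus miR-181c-5p had a log2 ratio of -0.24 (95% interval -0.34 to -0.14), and miR-181b-5p plus miR-181d-5p one of 0.16 (0.06 to 0.27). By cluster, the log2 ratio was -0.22 (-0.31 to -0.13) for the a/b 5p names and 0.28 (0.15 to 0.41) for the c/d 5p names. With the 3p names added it was -0.23 (-0.32 to -0.14) for the a/b clusters and 0.12 (0.0065 to 0.23) for the c/d cluster. The part of read assignment in these differences was not tested.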
